A study of Homo sapiens with 6 samples.

Results

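The genes described here encode the machinery that removes mRNA from human cells: the CCR4-NOT and PAN deadenylases, the decapping enzyme with its activators and the LSM ring, the XRN exonucleases, the RNA exosome, and the factors of nonsense-mediated decay. They are 51 genes chosen by name, 13 for CCR4-NOT with its TOB and BTG partners, 3 for PAN and PARN, 14 for decapping and LSM, 2 XRN genes, 12 for the exosome and 7 for nonsense-mediated decay, out of 17721 gene identifiers in all. The series concerns U2OS, an established human osteosarcoma cell line, and its title ties expression of the DNA methyltransferase DNMT1 to NSun2, a cytosine methyltransferase of RNA, and to apoptosis. According to the labels there were 6 RNA samples: 1 input from shNC cells (genotype given as WT), 1 input from shDNMT1 cells (DNMT1 knockdown), and 2 samples from each kind of cell in which RNA had been precipitated together with a mutant NSun2 protein. A plasmid for that NSun2 mutant was transfected into both kinds of cell, and the labels do not say that the 2 samples of a kind came from separate cultures. The values came from 2 deposited tables of FPKM, a level scaled for how long the transcript is and how many fragments were mapped, and no column of either names a sample, a knockdown state, or input against precipitate. The terms first and second table give only an order, and whether the tables correspond to control and knockdown cells is not known. With a single value for a gene in each, there were no replicates, and neither an SD nor a test could be given.

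Decay of most mRNAs begins at the poly(A) tail, which PAN2-PAN3 and then CCR4-NOT shorten. The shortened end is bound by the LSM1-7 ring with PATL1, the helicase DDX6 and the EDC proteins help DCP2 to remove the cap, and XRN1 then digests the body from the uncapped end, while the exosome digests RNA from the opposite end. Nonsense-mediated decay sends mRNAs with a premature stop codon into these routes through the helicase UPF1.

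The first table listed 15167 genes, the second 16824, and 14270 were in both. DNMT1, which the hairpin targets, had 23.3 and 9.36 FPKM in the first and second table, and NSUN2 had 559 and 1147 FPKM. Vimentin (VIM), a mesenchymal marker, was listed at 262 and 407 FPKM, the collagen COL1A1 at 3.04 and 0.45 FPKM and the alkaline phosphatase ALPL at 78.4 and 38.0 FPKM. The osteoblast factor RUNX2 was at 0.81 FPKM in the second table and not in the first. The epithelial marker EPCAM was listed at 2.20 and 0.55 FPKM, and the markers of leukocytes (PTPRC), endothelium (PECAM1) and liver (ALB) were in neither table. The absolute number of fragments behind each table is unknown.

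All 51 decay genes were listed in the second table and 50 of them in both. The exception was DCP1B, a paralog of the decapping activator DCP1A, found at 0.11 FPKM in the second table alone. Differences are given as the log2 ratio of the second table over the first after adding 1 FPKM to each value, which understates the difference of low genes. Of the 50 decay genes with a ratio, 34 (68.0%) were higher in the second and 16 lower, against 54.8% of all 14270 genes higher and 45.2% lower. The number higher became 32 when the ratios were centred on the median of all genes, 0.05. The median log2 ratio was 0.23 for the decay genes and 0.05 for all genes, whose middle 50% ran from -0.23 to 0.36. At least 2-fold on this scale, 2 decay genes (4%) were higher, LSM1 and CNOT7, against 2.04% of all genes, and 0 were lower, against 1.68% of all genes. At least 1.5-fold, 9 (18.0%) were higher and 1 (2%) was lower, against 12.2% and 7.83% of all genes. With so few genes past either fold these shares are imprecise, and whether they differ from those of all genes was not tested. The levels themselves were alike in order, with a Spearman correlation of 0.93 between the tables across the 50 genes, against 0.96 across all 14270 genes. The genes share the same 2 tables and are not independent.

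**Figure D1:**
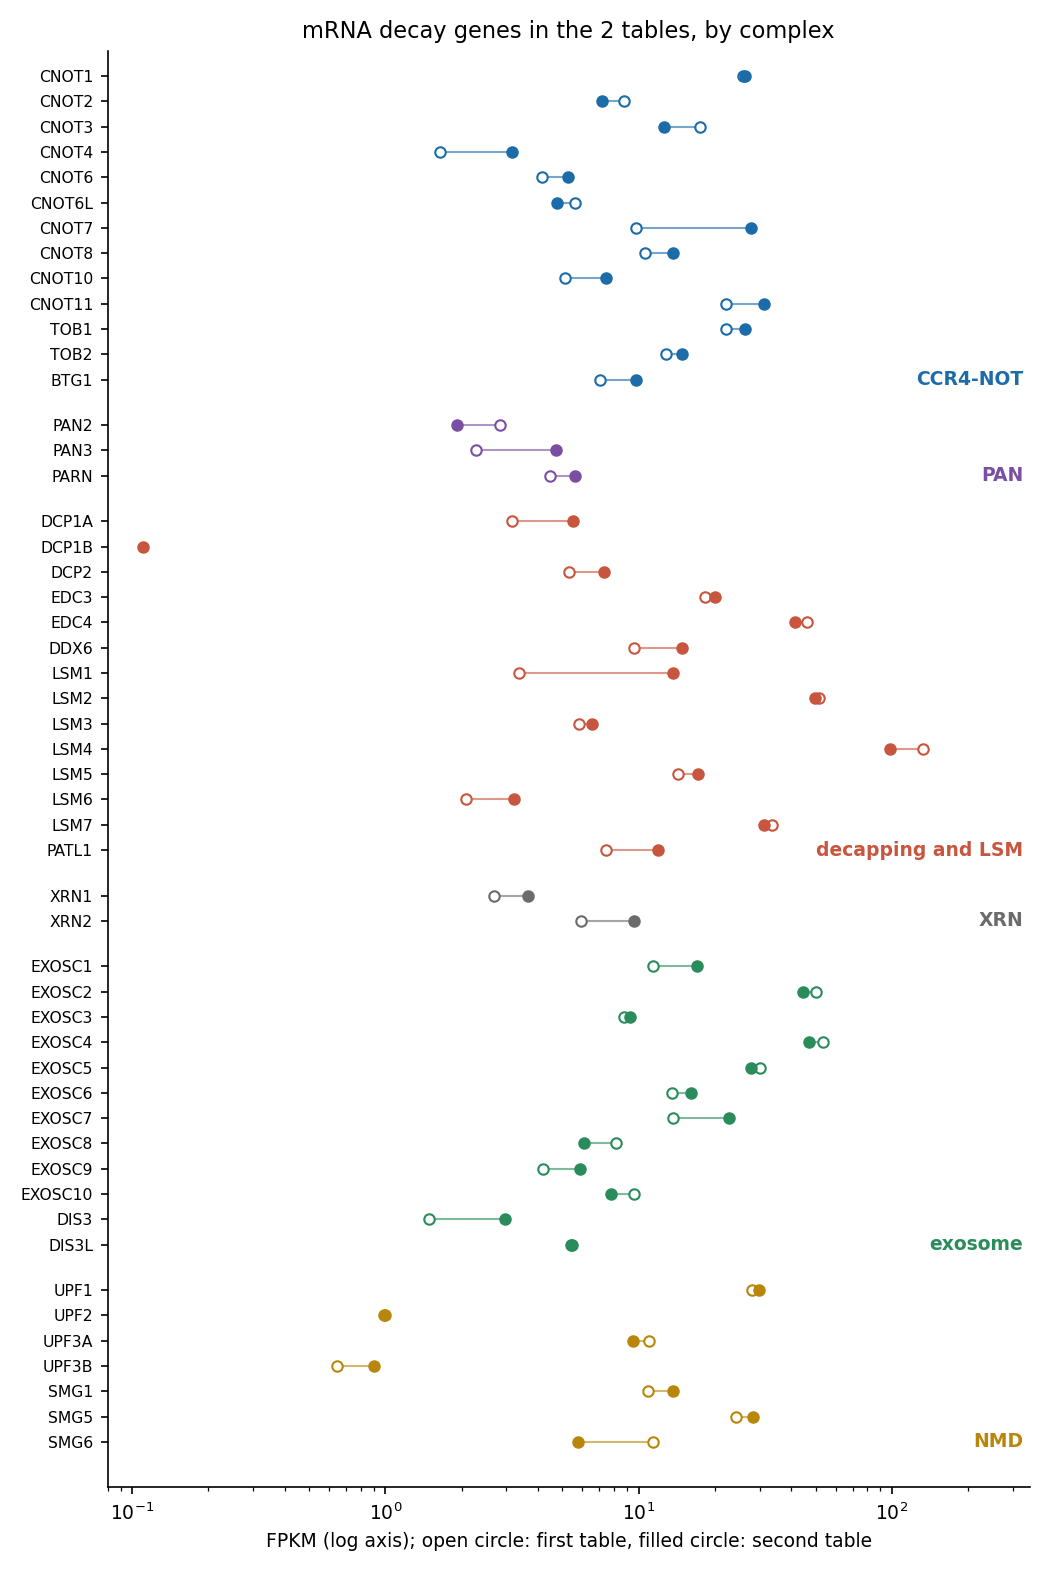
FPKM of the 51 mRNA decay genes on a log axis, grouped by complex, with the first table as open and the second as filled circles joined by a line. The longest lines belong to LSM1 and CNOT7, with the filled circle to the right, DCP1B has a filled circle only, and LSM4 is the gene with the highest level in each table.

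DNMT1 acts on CG dinucleotides in DNA, and the windows around the starts of 2 decay genes show how many these genes hold. Among genes with a promoter entry in the RefSeq table of GRCh38.p14, from 250 bases before to 50 after the listed start, PAN3 had the highest and SMG6 the lowest log2 ratio of the decay genes. LSM1 and CNOT7, the genes past 2-fold, had no entry. The RefSeq gene span of PAN3 starts at 28138193, before its window, so that window does not surround the outer end of the gene. The capitals mark CG dinucleotides, 26 in the PAN3 window (chr13:28138295-28138594, plus strand) and 46 in that of SMG6 (chr17:2303736-2304035, minus strand, the outermost of 4 starts listed).
PAN3: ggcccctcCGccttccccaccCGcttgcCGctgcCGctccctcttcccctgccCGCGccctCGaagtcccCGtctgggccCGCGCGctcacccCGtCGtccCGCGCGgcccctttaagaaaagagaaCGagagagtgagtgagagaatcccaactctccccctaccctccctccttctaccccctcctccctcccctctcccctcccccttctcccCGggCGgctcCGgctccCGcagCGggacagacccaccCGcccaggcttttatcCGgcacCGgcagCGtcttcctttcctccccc
SMG6: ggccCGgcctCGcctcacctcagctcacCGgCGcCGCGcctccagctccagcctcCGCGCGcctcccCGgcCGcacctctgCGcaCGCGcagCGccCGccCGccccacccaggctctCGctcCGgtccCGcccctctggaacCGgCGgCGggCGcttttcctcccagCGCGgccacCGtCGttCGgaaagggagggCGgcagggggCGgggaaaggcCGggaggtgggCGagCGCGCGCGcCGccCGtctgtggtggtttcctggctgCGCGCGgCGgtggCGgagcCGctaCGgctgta
Both windows hold as many CG as the median decay gene or more. Of the 51 decay genes 45 had an entry, with a median of 26 CG per window and quartiles of 22 and 33. The median was also 26 over 9698 genes in both tables, and 13 over all 27305 promoters. The letters GGGCGG, on either strand, occurred in 38 of the 45 windows (84.4%), against 70.6% of genes in both tables and 44.5% of all promoters. CCGGAAG occurred in 7 (15.6%), against 19.7% and 10.6%, and TATAAA in 2 (4.44%), against 5.37% and 12.0%, both strands searched. Across the 44 decay genes with an entry and a ratio, the Spearman correlation of the log2 ratio with the number of CG was -0.06, and over 9708 listed identifiers it was 0.01. These correlations and matches describe the letters of the windows, and methylation was not measured in the files used here.

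CCR4-NOT removes the poly(A) tail with a pair of deadenylases held on the scaffold CNOT1. Of its 13 genes, TOB and BTG adaptors included, 10 were higher in the second table, against 54.8% of all genes. The median log2 ratio of the complex was 0.28, against 0.05 for all genes. Centred on all genes the number higher in CCR4-NOT became 9, because CNOT1 changed sides. The counts and medians of the other complexes stand against the same values, and whether any complex differs from all genes was not tested. CNOT7, a deadenylase of the DEDD type, was listed at 9.78 and 27.7 FPKM, which is a log2 ratio of 1.41 and the 34th highest of all 14270 genes. Its paralog CNOT8, which takes the same place in the complex, was listed at 10.6 and 13.7 FPKM. The first table thus held slightly more CNOT8 than CNOT7, while in the second CNOT7 was 2.02 times CNOT8. CNOT6 and CNOT6L, the alternative deadenylases of the EEP type, were listed at 4.17 and 5.27 FPKM and at 5.59 and 4.74 FPKM. CNOT6L was the higher of the pair in the first table, by 1.34-fold, and CNOT6 in the second, by 1.11-fold.

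The scaffold CNOT1 was listed at 25.8 and 26.3 FPKM, the smallest difference in the complex, and its log2 ratio of 0.02 turned negative when centred on all genes or on genes of like local density. CNOT2 and CNOT3, which form a module of their own on the scaffold, were both lower in the second table. CNOT2 was listed at 8.73 and 7.20 FPKM and CNOT3 at 17.5 and 12.6 FPKM, with log2 ratios of -0.25 and -0.45. CNOT2 shared its locus with RAB3IP, a regulator of RAB GTPases at 1.20 and 4.21 FPKM, and other identifiers, and with FPKM summed over that locus its ratio turned to 0.08, while that of CNOT3 was -0.34. CNOT10 and CNOT11, the module at the opposite end of the scaffold, were both higher, at 5.12 and 7.46 FPKM and at 22.1 and 31.3 FPKM. CNOT11 had the highest mean level of the complex, but it shared its locus with RPL31, a ribosomal protein gene listed at 183 and 151 FPKM, and 5 other identifiers. With FPKM summed over the identifiers of that locus the log2 ratio was -0.16 in place of 0.48. CNOT4, a ubiquitin ligase that binds the complex, was at the bottom of the range at 1.65 and 3.16 FPKM. The adaptors TOB1, TOB2 and BTG1, which bring the complex to particular mRNAs and restrain growth, were all higher in the second table, by log2 ratios from 0.19 to 0.42. TOB1 was listed at 22.1 and 26.2 FPKM, TOB2 at 12.8 and 14.8 FPKM and BTG1 at 7.06 and 9.79 FPKM.

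PAN2 is the catalytic and PAN3 the adaptor subunit of the other tail-shortening complex, and they differed in opposite directions. PAN2 was listed at 2.83 and 1.93 FPKM and PAN3 at 2.27 and 4.72 FPKM, with log2 ratios of -0.39 and 0.81. PAN2 stood above PAN3 in the first table and below it in the second. Both shared a locus string with other identifiers, and with FPKM summed over the locus PAN2 came to 0.23 and PAN3 to 0.70. The sum over the PAN2 locus was 159 and 186 FPKM, mostly from CS at 121 and 143 FPKM. That sum therefore says little about PAN2 itself. An antisense gene that starts beside PAN3, PAN3-AS1, was listed at 1.14 and 0.258 FPKM, in the opposite direction, and the sources used here do not say whether strand was used in counting. PARN, a poly(A)-specific ribonuclease that also trims noncoding RNAs and shares no locus, was listed at 4.47 and 5.60 FPKM.

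In the decapping group 13 genes were in both tables. Of these, 9 were higher in the second, with a median log2 ratio of 0.25, against 54.8% and 0.05 for all genes. Among genes of this group with a mean of at least 10 FPKM, 7 in number, the median was -0.05, so its sign depended on the genes of lower level. DCP2, the decapping enzyme, was listed at 5.30 and 7.31 FPKM. Its activator DCP1A was listed at 3.16 and 5.50 FPKM, about 50 times the level of DCP1B in the second table. DCP1B, at 0.11 FPKM, shared its locus with 7 other identifiers, among them FKBP4 at 58.5 and 61.4 FPKM and FOXM1 at 49.6 and 55.3 FPKM. How fragments were divided there is not known, so that fold is imprecise. DDX6, a helicase that represses translation and joins deadenylation to decapping, was listed at 9.60 and 14.8 FPKM, and PATL1, the scaffold that bridges DDX6 and the LSM ring, at 7.43 and 12.0 FPKM. DCP2, DCP1A, DDX6 and PATL1 were higher in the second table by log2 ratios of 0.40 to 0.64, and they kept that direction under both centrings. The 0.64 of DCP1A was 0.36 with FPKM summed over its locus. That locus also held CHDH, at 1.67 and 0.84 FPKM, and CACNA1D, at 0.11 and 0.26 FPKM. The 2 EDC proteins lay closer together, with EDC3, an enhancer of decapping, at 18.3 and 20.1 FPKM and EDC4, the scaffold of the decapping complex, at 46.1 and 41.2 FPKM. EDC4 was the single one of the 6 genes outside the LSM ring that was lower.

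The LSM1-7 ring binds the end of deadenylated mRNA, and its 6 subunits other than LSM1 also serve in the nuclear ring on U6 RNA, where LSM8 takes the place of LSM1. LSM1 was listed at 3.36 and 13.7 FPKM, which is a log2 ratio of 1.76 and the 10th highest of all 14270 genes, or 4.08-fold without the pseudocount. LSM8, its nuclear counterpart, was listed at 14.8 and 13.3 FPKM. LSM1 therefore stood far below LSM8 in the first table and close to it in the second. None of the other 6 ring subunits reached 1.5-fold in either direction on the log2(FPKM + 1) scale. LSM4 was listed at 133 and 98.1 FPKM, the highest level of any decay gene, and LSM6 at 2.08 and 3.22 FPKM, the lowest of the ring. LSM4 exceeded LSM6 by 63.7-fold in the first table and LSM1-7 as a whole spanned 30.5-fold in the second. The subunits occur once each in the ring, but these are RNA values and do not give protein amounts. Between LSM4 and LSM6 lay LSM2, at 51.4 and 49.7 FPKM, and LSM7 at 33.7 and 31.2 FPKM. Also between them were LSM5 at 14.3 and 17.2 FPKM and LSM3 at 5.83 and 6.57 FPKM. LSM7 shared its locus with SPPL2B, JSRP1 and OAZ1, the last at 492 and 445 FPKM. Its log2 ratio of -0.11 was -0.15 with FPKM summed over that locus, a sum mostly from OAZ1. LSM2, LSM3 and LSM7 differed so little that their direction turned when the ratio was centred on genes of like local density.

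**Figure D2:**
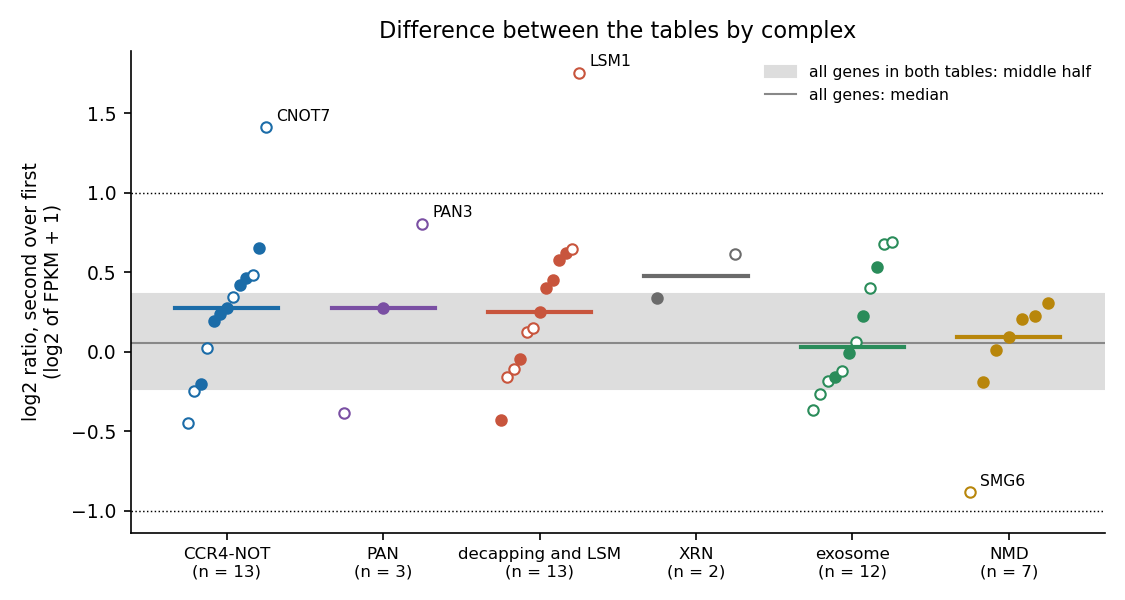
Log2 ratio of the second over the first table for the 50 decay genes in both tables, by complex, with the median of each as a bar and open circles for genes that share a locus string with another identifier; the grey band is the middle 50% of all 14270 genes and dotted lines mark 2-fold. LSM1 and CNOT7 lie above the upper dotted line, no gene lies below the lower one, and SMG6 is nearest to it.

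XRN1, the cytoplasmic exonuclease that degrades decapped mRNA, was listed at 2.67 and 3.64 FPKM. XRN2, its nuclear relative that acts in transcription termination, was listed at 5.90 and 9.57 FPKM. Both were higher in the second table, with log2 ratios of 0.34 and 0.61. XRN2 had the higher FPKM, by 2.21-fold in the first table and 2.63-fold in the second. It shared its locus with RP1-198K11.5, and its log2 ratio over the summed locus was 0.50.

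The exosome genes were evenly divided, with 6 of 12 higher in the second table, 6 lower and a median log2 ratio of 0.03 that became -0.02 when centred on all genes and 0.24 with FPKM summed over the locus, which 8 of the 12 share with other identifiers. Its barrel is a ring of EXOSC4 to EXOSC9 capped by EXOSC1 to EXOSC3, and these 9 genes spanned 12.8-fold in the first table and 8.03-fold in the second. Their order by level was nearly the same in both tables, with a Spearman correlation of 0.98 over the 9 genes, against 0.96 over all genes. The highest FPKM were those of EXOSC4 at 53.6 and 47.1, the cap subunit EXOSC2 at 50.03 and 44.7 and EXOSC5 at 30.2 and 27.7. All 3 were slightly lower in the second table. At the low end were EXOSC9 at 4.20 and 5.86 FPKM and EXOSC8 at 8.15 and 6.10 FPKM, which differed in opposite directions. The EXOSC8 ratio of -0.37 was 0.39 with FPKM summed over its locus. That locus also held SUPT20H at 1.74 and 3.72 FPKM and ALG5 at 1.34 and 5.19 FPKM, both higher in the second table. EXOSC7 had the highest ratio of the complex, 0.69, at 13.7 and 22.6 FPKM, or 0.43 with FPKM summed over its locus. The other ring and cap genes were EXOSC6, at 13.6 and 16.0 FPKM, EXOSC1 at 11.4 and 16.9 FPKM and EXOSC3 at 8.77 and 9.22 FPKM, and the direction of EXOSC3 turned when centred on genes of like density.

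The barrel has no activity of its own in human cells. The genes of the nucleases attached to it were listed at lower FPKM than most of its subunit genes, and protein amounts are not known. EXOSC10, the nuclear nuclease, was listed at 9.55 and 7.79 FPKM. DIS3, a nuclear exonuclease and endonuclease, was listed at 1.48 and 2.98 FPKM and its cytoplasmic paralog DIS3L at 5.43 and 5.41 FPKM. DIS3L was 3.66 times DIS3 in the first table and 1.82 times in the second. The log2 ratio of DIS3 was 0.68, or 0.52 with FPKM summed over its locus, while DIS3L was nearly equal in the tables.

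Of the 7 genes of nonsense-mediated decay, 5 were higher in the second table and 2 lower, against 54.8% and 45.2% of all genes. The median log2 ratio of the 7 was 0.09, against 0.05 for all genes. The number higher became 4 when centred on all genes, because UPF2 changed sides. UPF1, the central helicase, was listed at 28.0 and 29.8 FPKM, and SMG5, which binds phosphorylated UPF1, at 24.1 and 28.4 FPKM. SMG1, the kinase that phosphorylates UPF1, was listed at 10.8 and 13.6 FPKM. UPF1, SMG5 and SMG1 differed by log2 ratios of no more than 0.31. UPF2, which links UPF1 to UPF3 proteins, was near the bottom at 0.984 and 0.998 FPKM. UPF3A was listed at 11.0 and 9.53 FPKM and its X-linked paralog UPF3B at 0.646 and 0.898 FPKM, so UPF3A exceeded UPF3B by 17.0-fold in the first table and 10.6-fold in the second. SMG6, the endonuclease that cuts target mRNAs, had the lowest ratio of all decay genes, -0.88, at 11.4 and 5.74 FPKM. Its locus string covered 6 other identifiers, among them TSR1, a ribosome maturation factor, at 11.7 and 15.9 FPKM and SGSM2 at 12.7 and 9.15 FPKM, and the ratio over the summed locus was -0.30.

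Many locus strings in the tables spanned several genes, and how the authors split fragments among such genes is not known. Of the 51 decay genes 25 (49.0%) shared a locus with another identifier, against 47.5% of all identifiers. Both genes past 2-fold did so. LSM1 (chromosome 8, 38163321 to 38176730 in RefSeq on GRCh38.p14) shared its locus with ASH2L, a subunit of histone methyltransferases listed at 8.65 and 7.75 FPKM, and with BAG4, a chaperone regulator at 4.48 and 6.04 FPKM. The sum over the 3 genes was 16.5 and 27.5 FPKM, a log2 ratio of 0.70, under 2-fold. CNOT7 (chromosome 8, 17224966 to 17246857) shared its locus with VPS37A, an endosomal sorting factor at 6.17 and 9.42 FPKM. Their sum was 15.9 and 37.2 FPKM, a log2 ratio of 1.17, still above 2-fold. Among the 26 decay genes that shared no locus, 20 were higher in the second table and 6 were lower, with a median log2 ratio of 0.24. Of all genes, sharing a locus or not, 54.8% were higher. In these 26 genes 0 reached 2-fold, against 2.04% of all genes higher and 1.68% lower, which is near the background for so few genes. Shares over all genes that share no locus are not given here. How the division of fragments enters the ratios of LSM1 and CNOT7 was not tested.

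The genes around the decay genes with the widest differences mostly differed less. Because LSM1, CNOT7, PAN3 and SMG6 were taken for their wide ratios, this follows largely from the choice. Within 1 Mb of the LSM1 midpoint lay 16 other genes in both tables, with log2 ratios from -0.35 to 0.80 and a median of 0.05, so that none reached LSM1. Around CNOT7 lay 7, from -0.73 to 0.71 with a median of 0.19, and the 2 nearest, ZDHHC2, a palmitoyltransferase, and VPS37A, were both higher in the second table. PAN3 stood above all of its 9 neighbours, whose ratios ran from -0.78 to 0.48. Of the 28 neighbours of SMG6, 1 lay below it, HNRNPA1P16, a pseudogene in the same locus at 1.25 and 0.142 FPKM.

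**Figure D3:**
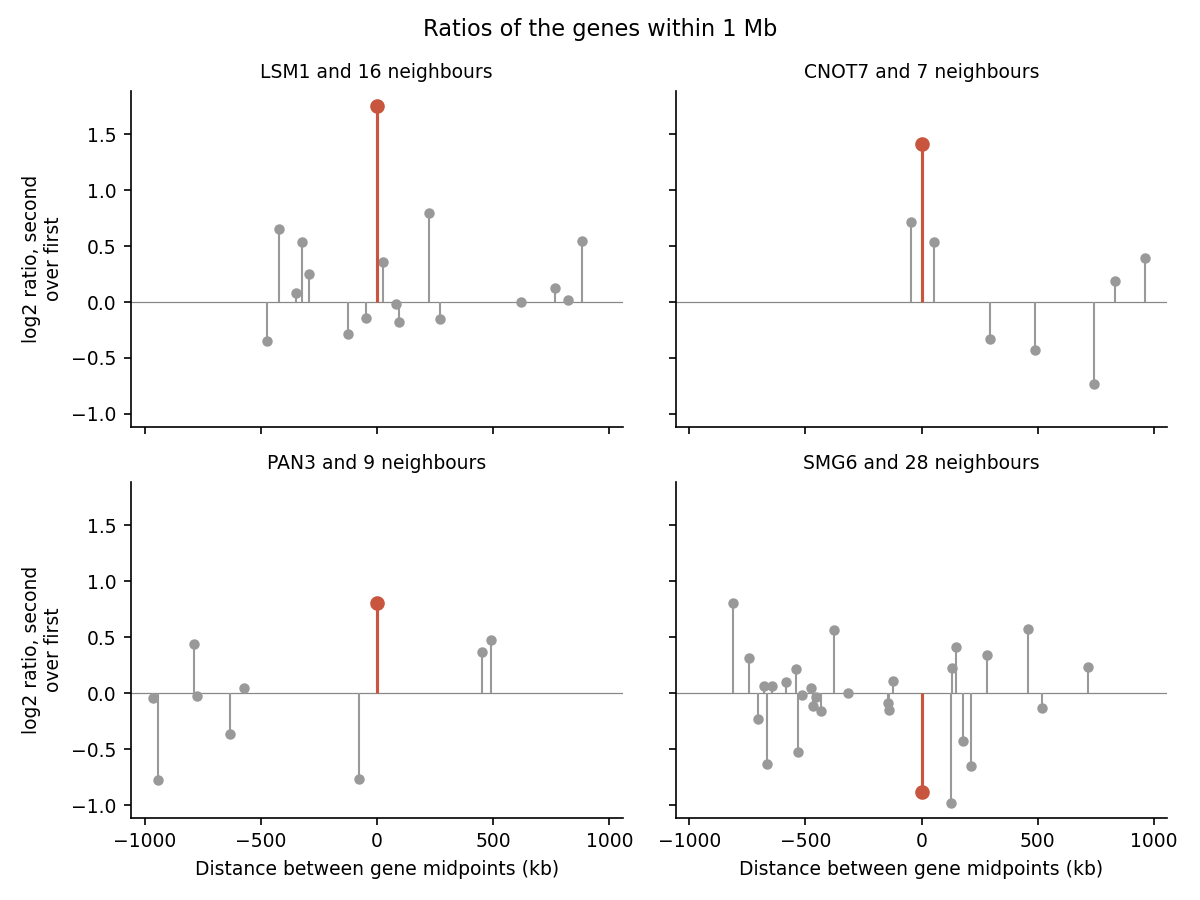
Log2 ratios of the second over the first table for LSM1, CNOT7, PAN3 and SMG6 (red) and for every other gene in both tables whose midpoint lies within 1 Mb (grey), against the distance between gene midpoints in kb. LSM1, CNOT7 and PAN3 stand above all of their neighbours, and the values around them fall on both sides of 0. The genes in red were taken for their wide ratios.

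The ratio also moved with the number of listed genes that start within 1 Mb, a measure of local gene density. Across the 50 decay genes the Spearman correlation of the log2 ratio with this number was -0.45, and across all 14270 genes it was -0.25. With all genes in 5 classes of equal size, 9 of the 11 decay genes in the sparsest class (at most 10 neighbours) were higher in the second table, with a median of 0.40 against 0.20 for all genes of that class. In the densest class (45 to 122 neighbours) 2 of 8 were higher, UPF1 and SMG5, and the median of -0.13 lay beside -0.12 for all genes. Centred on the class medians, 32 of the 50 decay genes remained above 0 and their median was 0.20. The part of density in these ratios was not tested.

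**Figure D4:**
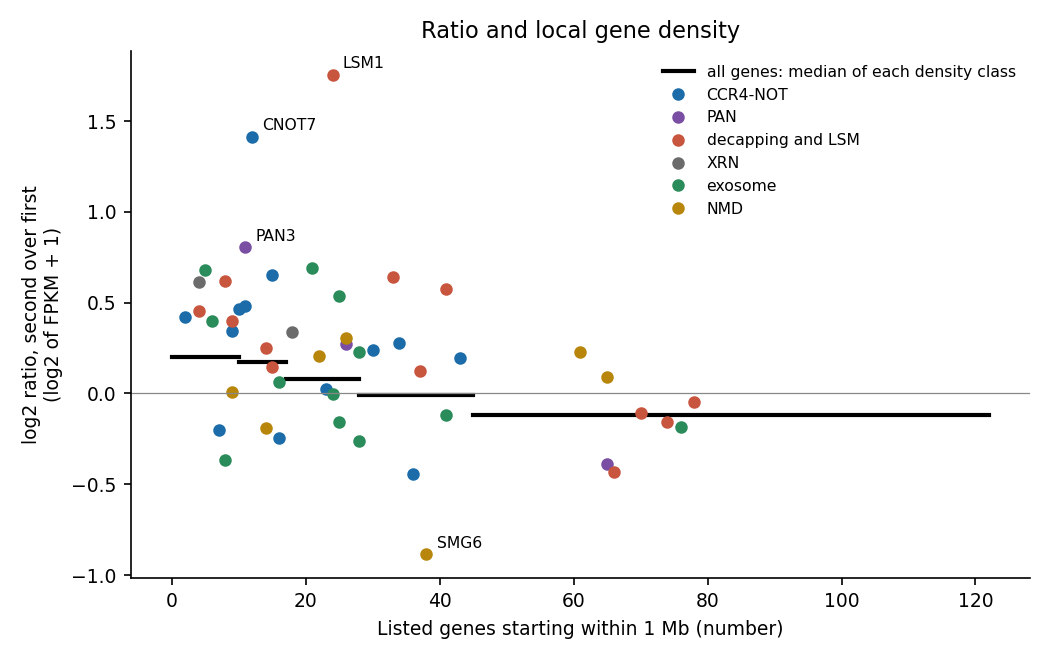
Log2 ratio of the second over the first table for the 50 decay genes, coloured by complex, against the count of listed genes that start within 1 Mb, with black lines for the median of all genes in each of 5 density classes. The class medians of all genes go from 0.20 on the left to -0.12 on the right, and the decay genes with more than 60 neighbours lie between -0.43 and 0.23.

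Chromosomes 3, 16 and 19 held 5 decay genes each. On chromosome 3 all 5 (CNOT10, DCP1A, LSM3, XRN1 and EXOSC7) were higher in the second table, although LSM3 turned when centred on density, and their median of 0.47 compares with 0.16 for the 753 genes of that chromosome in both tables. On chromosome 19, where genes lie densely, 4 of 5 were lower (CNOT3, LSM4, LSM7 and EXOSC5), with UPF1 the exception. LSM7 turned when centred on density. Their median was -0.12, against -0.09 for the 1015 genes of the chromosome. On chromosome 16, 4 of 5 were higher, with CNOT1 turning under both centrings, and the median was 0.23 against -0.05 for its 769 genes.

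The most abundant decay genes all had the same direction. The 6 decay genes with a mean of at least 30 FPKM, EDC4, LSM2, LSM4, LSM7, EXOSC2 and EXOSC4, were all lower in the second table, while LSM2 and LSM7 turned when centred on density. Of the 2157 genes at that level, 48.8% were higher in the second table. From 10 to 30 FPKM 15 of 18 decay genes were higher, against 58.5% of all genes at that level. From 5 to 10 FPKM 10 of 16 were higher and 6 lower, against 64.0% of all genes higher, and under 5 FPKM 9 of 10 were higher, against 52.5%. The share of decay genes that were higher thus had no steady order from low to high level. From the lowest class to the highest their median log2 ratios were 0.40, 0.21, 0.23 and -0.16. The medians of all genes were 0.03, 0.17, 0.09 and -0.01. The level classes were set after the values had been seen. Of the 6 abundant genes 5 were in the densest class, EXOSC2 being the exception, so level and density cannot be told apart among them.

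Other genes of the same pathways were read from a list of 66 that holds no member, all of them listed and 64 in both tables. Of the 64, 46 (71.9%) were higher in the second table and 18 lower, with a median log2 ratio of 0.20, against 54.8% and 45.2% of all genes and their median of 0.05. The counts of the smaller groups stand against the same 54.8%. The number higher became 43 when centred on all genes and 42 when centred on density. At least 2-fold, 2 were higher and 0 were lower, against 2.04% and 1.68% of all genes, which is near the background for 64 genes. PELO, a factor that rescues stalled ribosomes, was listed at 6.67 and 16.4 FPKM and shared its locus with the integrins ITGA1 and ITGA2. ETF1, the release factor that reads stop codons, shared no locus and was listed at 11.4 and 24.0 FPKM. Neither reached 2-fold when centred on density. At least 1.5-fold, 10 (15.6%) of the 64 were higher and 4 (6.25%) were lower, against 12.2% and 7.83% of all genes. The 4 lower genes were PAPD4, MAGOH, CPEB4 and BTG2.

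Among genes of microRNA and AU-rich element decay 13 of 14 were higher in the second table, with a median of 0.20, and 11 and 10 of 14 under the 2 centrings. KHSRP, which recruits decay enzymes to AU-rich elements, was listed at 143 and 146 FPKM, and TNRC6C, a scaffold of microRNA silencing, was the exception at 2.05 and 1.09 FPKM. ZFP36L1 and ZFP36L2, which bring CCR4-NOT to AU-rich elements, were listed at 6.66 and 14.0 FPKM and at 10.8 and 19.5 FPKM, against 9.20 and 9.85 FPKM for their relative ZFP36. Among other NMD and exon junction genes 9 of 11 were higher, with RNPS1, a splicing-coupled factor, at 106 and 126 FPKM. The exosome cofactors had 9 of 13 higher, and the helicase SKIV2L of the cytoplasmic SKI complex was the most abundant at 49.2 and 52.8 FPKM. Poly(A) binding and tailing genes had 7 of 11 higher, with PABPC1, the main cytoplasmic poly(A) binding protein, at 267 and 307 FPKM. PAPD4 of this group, which shared no locus, had the lowest log2 ratio of the 64 pathway genes, -0.94, at 7.52 and 3.43 FPKM. The other decapping genes were divided, with 4 of 9 higher and a median of -0.02, and the scavenger decapping enzyme DCPS was listed at 37.6 and 35.2 FPKM. The other deadenylase genes had 4 of 6 higher, with CNOT9, a core CCR4-NOT subunit, at 19.5 and 31.1 FPKM. PATL2 and GSPT2 were absent from the first table and at 0.069 and 0.054 FPKM in the second.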

How the data were processed

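The values were FPKM per gene in 2 deposited tables, per the file headers (identifier, name, locus, FPKM), made by the authors with a tool that no source used here names. Per the submitters' processing notes, cutadapt 1.12, BWA 0.7.13 and MACS 1.4.2 were used with build hg38, with no role stated. The tables name no sample, so the planned comparison of groups, and its limma fit, were not made. Locus starts are counted from 0: after adding 1, 1675 of 7443 genes alone at their locus equalled the RefSeq start, against 133 without. Among 2354 genes under 1 FPKM in both tables, ratios gathered near log2 -1.06 and -0.06, and which stands for equal fragments is undecided, so relative depth was not used.

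Ratios were log2((second + 1)/(first + 1)), computed over all 14270 genes in both tables. Members, gene lists and rules were chosen with earlier results of these data known. Every member is named by complex, with pathway genes at least 2-fold different or highest in their group; further pathway genes were named after their values were seen. Names matched for 51 of 51 members and 66 of 66 list genes, older symbols included. Where several starts were listed, the outermost promoter was used. Calculations used Python 3.11.15, pandas 2.3.3 and numpy 2.4.6, tested on simulated data, and matplotlib 3.10.9 for figures. Alternatives were other pseudocounts, a level filter, centring, locus sums, genes sharing no locus, summed identifiers and 1.5-fold.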

Additional observations from a re-analysis of the deposited data

How the results depend on the processing

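No paired analysis was possible because no column carries a replicate number, and leaving out a replicate could not be run. The 2 decay genes at least 2-fold higher became 4 with no pseudocount, 1 at a mean of at least 10 FPKM, 0 among genes sharing no locus, 1 with FPKM summed over the locus and 9 at 1.5-fold, where the 0 lower became 1. The 34 higher and 16 lower became 15 and 9 at 10 FPKM and 20 and 6 among genes sharing no locus, where fewer genes enter by construction. The decapping median became -0.048 at 10 FPKM, and the exosome median -0.024 centred on all genes and -0.077 centred on density. Of the other pathway genes, the 2 at least 2-fold higher became 5 with either smaller pseudocount, 1 centred on all genes, 0 centred on density, 1 among genes sharing no locus and 1 over summed loci. The 0 lower became 2 with either smaller pseudocount and 1 centred on density. Their 46 higher and 18 lower became 23 and 9 at 10 FPKM and 29 and 10 among genes sharing no locus. A smaller pseudocount enlarges ratios by construction, and the cause of the remaining changes was not tested. For PAN and XRN no gene had a mean of 10 FPKM. The exosome median became 0.24 with locus sums, and the 2 decay genes became 3 with a pseudocount of 0.1. Those 2 values count among the 102 for lists that kept their sign, with counts within 1.5 times and median ratios shifted by less than 1.5-fold. For single genes and pairs 331 values shifted by less than 1.5-fold, with a change of sign for CNOT1, CNOT2, LSM2, LSM3, LSM7, EXOSC3 and UPF2 under centring or locus sums. A further 5 shifted more, the locus sums of CNOT11 (-0.16), PAN2 (0.23), LSM1 (0.70), EXOSC8 (0.39) and SMG6 (-0.30). Fragments per gene are unknown, so the precision of a low value such as DCP1B is too.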
